A study of Bos taurus with 15 samples.

Results

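Bovine meniscal fibrochondrocytes grown for 28 days in the middle of a tissue cast in a mold without post anchors (unanchored middle, 3 libraries) were compared with the same kind of cell in collagen that was given no mold (no mold, 3 libraries). These 6 of the 15 libraries of the study were chosen by their treatment label, and 11834 of 38001 genes in the deposited table had enough counts to be tested. In both groups the cells had spent 3 days in growth medium with 10% fetal bovine serum, then 25 days in chondrogenic medium with dexamethasone, 50 µg/ml ascorbic acid and 10 ng/ml TGF-β3, a growth factor that drives cartilage formation. The other 9 libraries came from the post region of unanchored tissue and from the middle and post regions of tissue cast with post anchors, 3 each, under the same media. The labels name no genotype, breed, age or sex, and the no-mold tissues are called blobs.

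The meniscus is a wedge of fibrocartilage in the knee, and its fibrochondrocytes make both the fibrous matrix of tendon-like tissue, with type I collagen and small proteoglycans, and the cartilage matrix, with type II collagen and aggrecan. SOX9 is the transcription factor that switches on the cartilage genes. Cells embedded in collagen pull on the gel, and the shape and the fixed points of the gel set where tension builds up.

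The tissue was checked against its own markers first. All 14 of the fibrochondrocyte markers listed had enough counts to be tested, and summed to between 37812 and 51079 CPM (counts scaled to an equal library total) in unanchored middle and between 33059 and 44001 in no mold. Of the markers of other cells, 12 of 13 endothelial, 12 of 16 leukocyte, 11 of 14 skeletal muscle and 6 of 10 Schwann and neural genes had too few counts to be tested. Over the 6 libraries the endothelial gene PECAM1 had 4 counts, the Schwann cell gene SOX10 0, the muscle gene MYOD1 0 and the leukocyte gene PTPRC 11. Other members of these lists were well counted, among them ERG (2072 counts) of the endothelial, S100B (10450.0) and PMP22 (6767) of the Schwann, and DES (296) of the muscle list, as were CSPG4 (2388) of the mural and FABP4 (9279) of the adipocyte list. The no-mold libraries were shallower, with 2060781, 4466562 and 2128257 counts against 6739123, 6301961 and 5666171 in unanchored middle, and mitochondrial messenger RNA made up 1.52% ± 0.186 of their counts against 2.21% ± 0.144 (SD, n = 3; exact two-sided permutation test, p = 0.1, the smallest that 3 against 3 can give). Both differences moved with the groups, and their part in the results was not tested. Across genes, log-scale values correlated at 0.987 to 0.991 within unanchored middle, 0.970 to 0.977 within no mold and 0.962 to 0.977 between the groups. The labels do not say whether replicates came from separate tissues, so p-values measure only the spread between libraries, which may be technical.

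The middle of the unanchored tissue differed from unmolded collagen in 1747 of the 11834 tested genes (14.8%), of which 895 (7.56%) were higher and 852 (7.2%) lower in unanchored middle (edgeR quasi-likelihood test, Benjamini-Hochberg adjusted p under 0.05). By size, 873 of the 1747 were under 1.5-fold, 136 were more than 2-fold higher, 161 more than 2-fold lower, and the median log2 fold change over all tested genes was 0.01. The 3 libraries of one group did not overlap those of the other in 1695 of the 1747 genes, and in 3951 of all tested genes (33.4%). The count rested partly on single libraries, falling to 1162 without no mold 1, 790 without no mold 3, 1144 without unanchored middle 1 and 1147 without unanchored middle 2. There were 617 genes past the threshold in all 6 such fits. Another fit left out the 3 shallowest libraries of the study (no mold 1, no mold 3 and anchored middle 2). It kept no mold 2 as the only library of its group, so its spread was estimated from the other groups. A call lost in that fit, here or below, cannot be told apart from a loss of replication and is not a measure of depth.

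**Figure D1:**
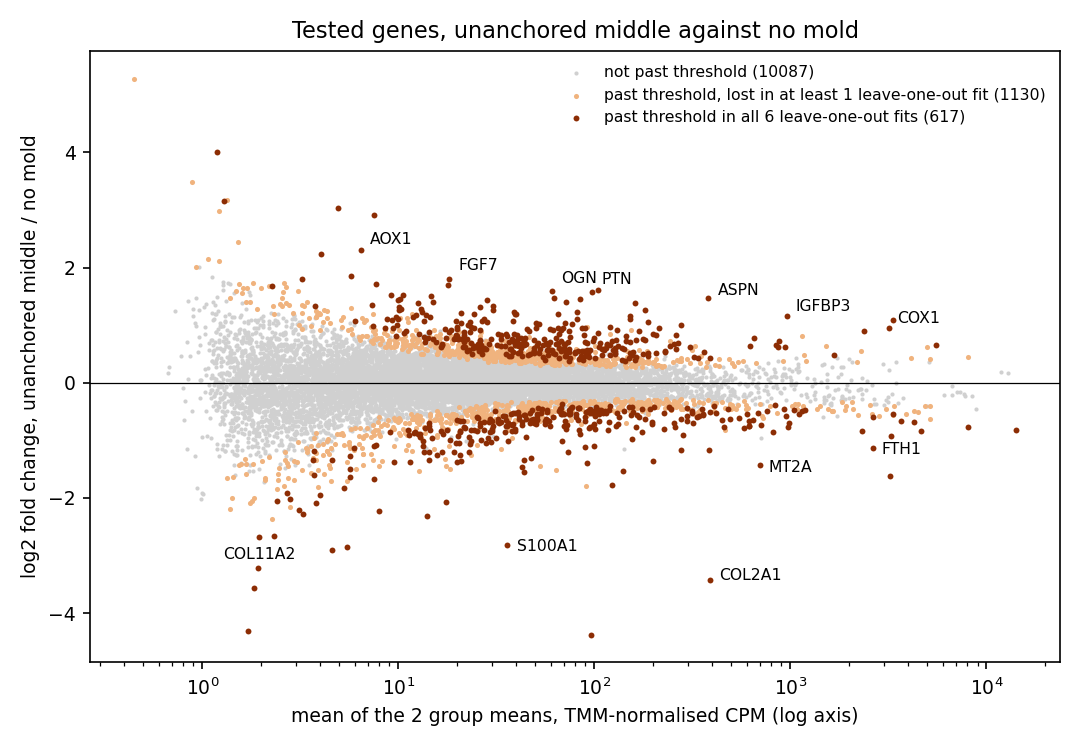
Each point is a tested gene, with the mean of the 2 group means on a log axis (TMM-normalised CPM) and the log2 fold change of unanchored middle over no mold on the vertical axis. Dark points (617) passed in all 6 fits that left out 1 library, orange points (1130) were lost in at least 1 of these fits, and grey points (10087) did not pass. COL2A1, at -3.43, is the lowest of the genes labelled by name.

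**Figure D2:**
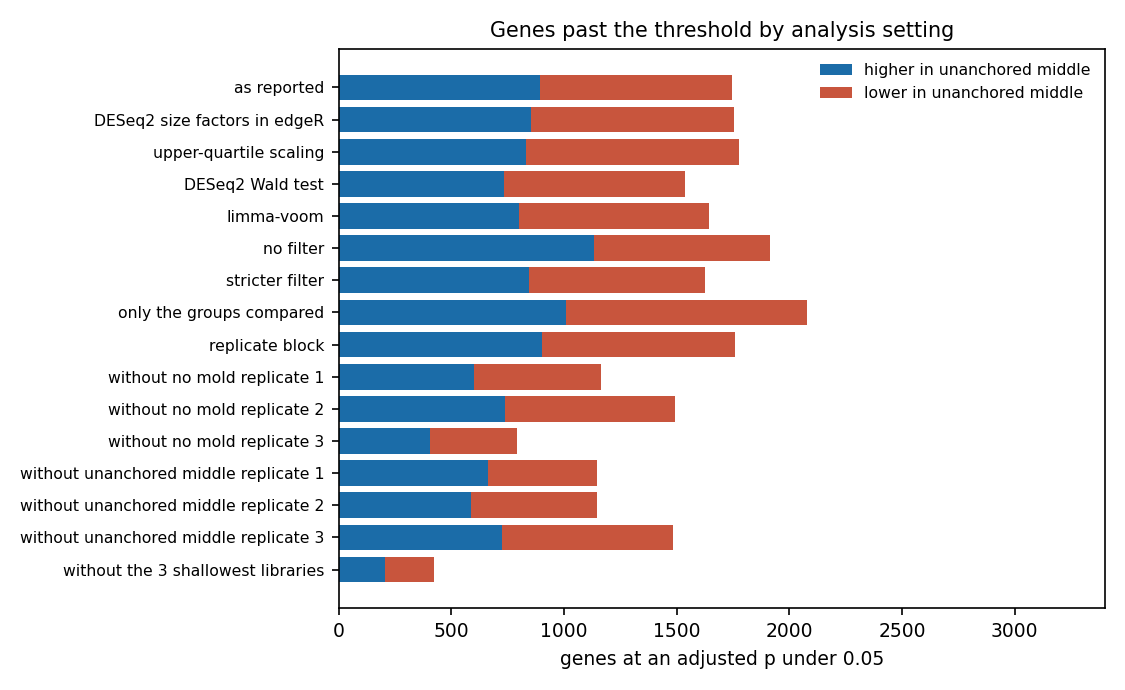
Bars give the number of genes past an adjusted p of 0.05 under the reported analysis and 15 alternatives, split into higher (blue) and lower (red) in unanchored middle. The count is highest, at 2077, when only the 6 libraries were fitted. It is lowest without the 3 shallowest libraries, a fit that kept only no mold 2 of its group.

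Values below are CPM after TMM scaling, which evens out library composition, given in the order of replicates 1, 2 and 3. Libraries made from the 3′ ends of transcripts are not divided by gene length, so levels of different genes are not compared. Each gene said to rise or fall also passed in each of the 15 alternatives that gave it an adjusted p, unless an alternative is named beside it (DESeq2 gave none for COL9A1, KERA and PRELP). A list's count is read beside the 14.8% of all tested genes that passed, 7.56% higher and 7.2% lower.

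Of 5 tested cartilage collagens, 4 were far lower in the molded middle and COL11A1 was not. COL2A1 (ENSBTAG00000013155), the chain of the type II collagen of hyaline cartilage, had 864, 750.1 and 510.1 CPM without a mold and 77.2, 88.5 and 30.7 in the unanchored middle. The groups did not overlap, and the fitted level was 10.8-fold lower (log2 fold change -3.43, SE 0.388, edgeR adjusted p = 4.19e-06). Among the chains that join type II collagen in its fibrils, 3 of 4 went the same way. COL11A2, of type XI collagen, went from 8.61, 9.60 and 5.95 to 1.13, 0.947 and 1.22 CPM (7.48-fold lower, adjusted p = 3.15e-06), and COL9A2, of type IX collagen on the fibril surface, from 14.7, 17.4 and 6.95 to 3.12, 3.63 and 1.92 (4.69-fold lower, adjusted p = 0.00021). COL9A1, its partner chain, had 30 counts in the no-mold libraries and 3 in unanchored middle, a ratio of 21.6 after division by the library totals (exact 95% interval 6.72 to 111, counting error only; edgeR adjusted p = 0.00169). COL11A1, the other tested type XI chain and the one with the most counts of these partners, was named after its values were seen and lay higher, at 848, 772 and 630.2 CPM without a mold and 932, 1167 and 822 in the unanchored middle. It did not pass (log2 fold change 0.38, SE 0.135, adjusted p = 0.0615), and its groups overlapped. In bulk tissue, fewer cells of a type and less RNA per cell cannot be told apart.

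Of 21 cartilage matrix genes listed, these 5 collagens included, 13 could be tested, 6 fell and 1 rose, with a median log2 fold change of -0.52 against 0.01 over all tested genes, and the 6 that fell did so in every fit that left out 1 library. Besides the 4 collagens, SCRG1 and CHAD fell. SCRG1, a secreted protein found in chondrogenic cells, went from 17.2, 16.9 and 15.4 to 6.80, 9.31 and 2.79 CPM (2.59-fold lower, adjusted p = 0.00245). CHAD, the cartilage matrix protein chondroadherin, named after its values were seen, went from 174, 147 and 85.8 to 74.3, 75.7 and 40.3 CPM (2.14-fold lower, adjusted p = 0.00279). The transcription factor SOX9 had 232, 202 and 237 CPM without a mold and 131, 131 and 109 with it, which was 1.8-fold lower (log2 fold change -0.85, SE 0.101, adjusted p = 8.88e-06). It was the only one of 10 tested chondrogenic and skeletal transcription factors to pass: its partners SOX5 and SOX6, also named after their values were seen, had log2 fold changes of -0.26 and -0.37 (adjusted p = 0.409 and 0.227).

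The large cartilage proteoglycan and glycoproteins did not pass. ACAN, the core protein of aggrecan, had 269, 211 and 158 CPM without a mold and 173, 186 and 85.1 in the unanchored middle, with overlapping groups (log2 fold change -0.52, SE 0.262, adjusted p = 0.194). COMP, which binds collagen fibrils, had 2599, 1469 and 1317 against 1431, 1947 and 798 CPM (log2 fold change -0.37, adjusted p = 0.437). PRG4, the boundary lubricant lubricin, had 319, 237 and 270.4 against 241, 296 and 244 CPM (log2 fold change -0.07, adjusted p = 0.83), and 73.9% of its counts were in non-whole values. CILP, of the cartilage intermediate layer, was the member that rose, from 12.2, 13.9 and 12.9 to 21.5, 21.8 and 20.1 CPM (1.6-fold, adjusted p = 0.0133), not past the threshold without no mold 3 (adjusted p = 0.0546) and without the 3 shallowest libraries (0.127). Unanchored middle 3 was the lowest of its group in 11 of the 13 tested cartilage matrix genes, against 36.5% of all tested genes, and its part in the result was not tested.

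Small leucine-rich proteoglycans, which bind collagen fibrils and set their spacing and diameter, included some of the clearest rises. OGN (osteoglycin) had 28.9, 32.0 and 29.3 CPM without a mold and 92.0, 107 and 74.6 in the unanchored middle, 3.01-fold higher (log2 fold change 1.59, SE 0.157, adjusted p = 7.38e-07). ASPN (asporin), a close relative of decorin, went from 178, 250.0 and 171 to 484, 614 and 580.4 CPM (2.78-fold, adjusted p = 1.62e-06). DCN (decorin), the main such proteoglycan of tendon, went from 1748, 1687 and 1521 to 2994, 3315 and 2963 CPM (1.87-fold, adjusted p = 6.42e-06). In all 3 the groups were well apart and each library of unanchored middle lay above each of no mold. KERA (keratocan) had 2 counts without a mold and 44 in unanchored middle, a ratio of 10.2 after division by library totals (exact 95% interval 2.66 to 86.7, counting error only; edgeR adjusted p = 0.00228, and 0.0503 without the 3 shallowest libraries). PRELP was the exception among the 12 tested of 13 listed: it fell from 3.04, 5.03 and 3.47 to 1.56, 2.21 and 0.872 CPM (adjusted p = 0.0121), not past the threshold without no mold 2 (adjusted p = 0.175). LUM, FMOD and BGN, the genes of lumican, fibromodulin and biglycan, were named after their values were seen and did not pass, with log2 fold changes of -0.24, 0.32 and -0.11 (adjusted p = 0.208, 0.0914 and 0.668).

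The main chains of the fibrous collagens did not pass. COL1A1 and COL3A1, of type I and type III collagen, had log2 fold changes of 0.19 (SE 0.204, adjusted p = 0.582) and 0.21 (SE 0.165, adjusted p = 0.425). COL1A1 had 13929, 10444 and 8775 CPM without a mold and 13952, 15427 and 8539 in the unanchored middle, so the groups overlapped. Of 7 tested fibrillar collagens of 8 listed, COL1A2 and COL5A2 rose, by 0.45 and 0.55 on the log2 scale (adjusted p = 0.0371 and 0.00825). Neither held in all fits that left out a library: COL1A2 was lost without no mold 2, no mold 3, unanchored middle 1 or unanchored middle 2 (adjusted p = 0.0821, 0.206, 0.0978 and 0.183), and COL5A2 without no mold 3 or unanchored middle 2 (0.0774 and 0.0501). Without the 3 shallowest libraries the adjusted p was 0.204 and 0.0929. Unanchored middle 3 was the lowest of its group in all 7 of these collagens, and its part in the result was not tested.

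Among 12 tested of 21 other collagens, 2 rose and 0 fell (16.7% called, near the share of all tested genes). COL4A1, a chain of the basement membrane network, went from 9.62, 8.23 and 6.95 to 27.4, 19.7 and 18.3 CPM (2.65-fold, log2 fold change 1.41, SE 0.276, adjusted p = 0.00149). COL4A2, another type IV chain, was named after its values were seen and did not pass (log2 fold change 0.39, adjusted p = 0.186). COL8A1, a short-chain collagen made by cells remodelling matrix, went from 793, 664 and 587 to 1108, 1064 and 957 CPM (1.53-fold, adjusted p = 0.00217). Elastic fibre genes gave 3 rises and 0 falls among 17 tested (17.6%, also near that share). FBN2, a fibrillin of developing microfibrils, went from 57.7, 32.5 and 49.6 to 107, 163 and 98.9 CPM (2.75-fold, adjusted p = 8.89e-05), and FBLN7, a fibulin, from 11.6, 13.0 and 12.9 to 26.9, 39.6 and 21.5 (2.32-fold, adjusted p = 0.0038). ELN, the elastin that these microfibrils carry, had 2304, 1614 and 1411 CPM without a mold and 1319, 1508 and 686 in the unanchored middle and did not pass (log2 fold change -0.60, adjusted p = 0.119).

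**Figure D3:**
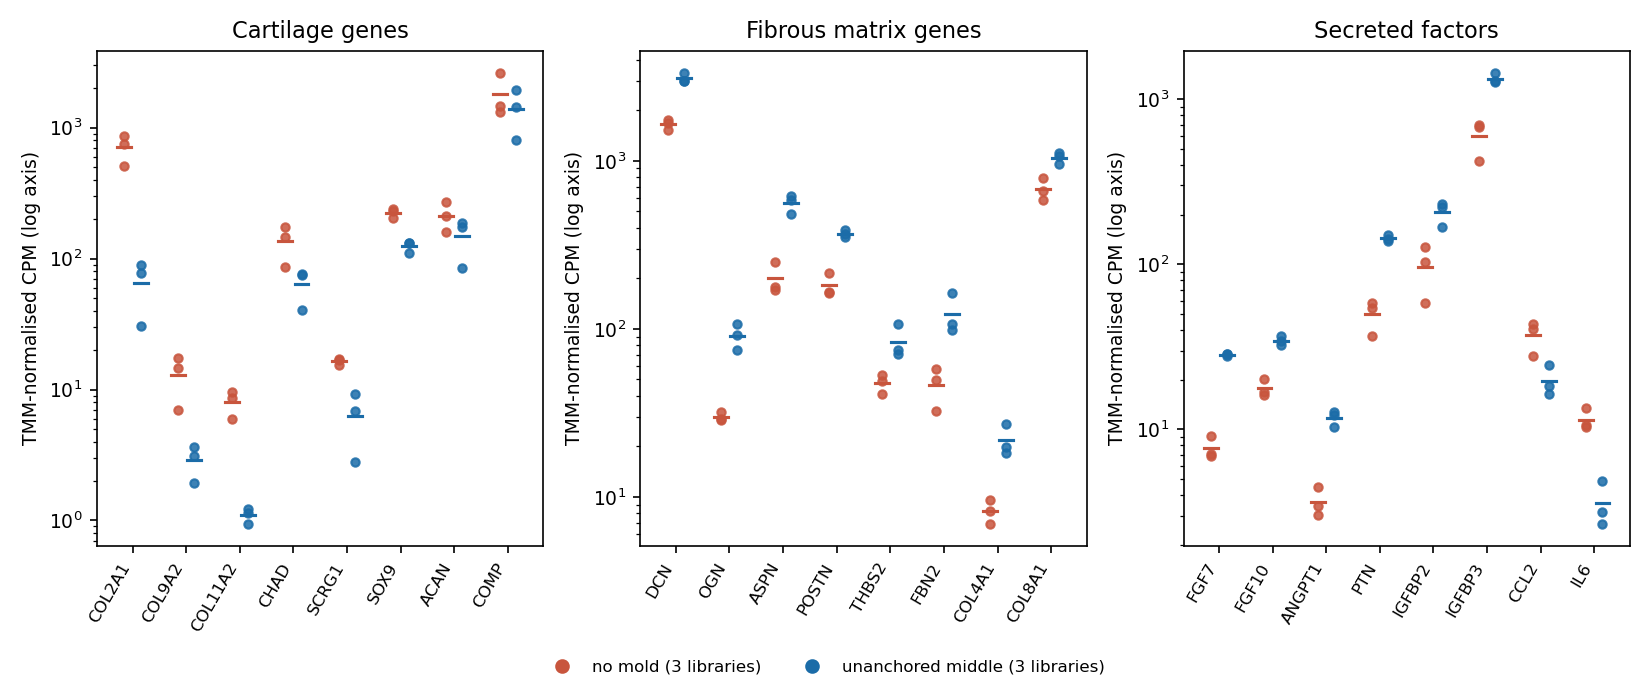
Points are single libraries and short lines group means of TMM-normalised CPM on log axes, for 8 cartilage genes, 8 fibrous matrix genes and 8 secreted factors, with no mold in red and unanchored middle in blue. The groups overlap for ACAN and COMP and are apart for the other genes drawn, with COL2A1 at 510.1 to 864 without a mold and 30.7 to 88.5 in unanchored middle.

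Matricellular proteins sit in the matrix and signal to cells without building its fibres. Of 13 tested genes of the tendon and matricellular list, 5 rose and 0 fell (median log2 fold change 0.37). Of these rises, 3 held in all 6 fits that left out a library, while SPARC and THBS4 each held in 3. POSTN (periostin), abundant in ligament under load, went from 167, 216 and 164 to 349.6, 389 and 365 CPM (2.00-fold, log2 fold change 1.00, SE 0.126, adjusted p = 1.59e-05). THBS2 (thrombospondin 2), which affects collagen fibril assembly, went from 53.2, 41.1 and 49.1 to 70.6, 106 and 75.0 CPM (1.79-fold, adjusted p = 0.00255). TNC (tenascin C) went from 125, 179 and 126 to 342, 267 and 235 CPM (1.94-fold, adjusted p = 0.000405), and did not pass without the 3 shallowest libraries (0.0757). The tendon transcription factors SCX and MKX had log2 fold changes of 0.34 and 0.20, short of the threshold (adjusted p = 0.311 and 0.382), and the tendon gene TNMD had 1 count over the 6 libraries.

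Enzymes that process and cut the matrix were mixed. PLOD1, a lysyl hydroxylase that prepares collagen for crosslinking, fell from 135, 109 and 126 to 70.1, 86.6 and 60.9 CPM (1.68-fold, adjusted p = 0.00599), while P4HA3, a collagen prolyl hydroxylase, rose from 215, 218 and 176 to 351, 371 and 262 (1.61-fold, adjusted p = 0.00122, and 0.0625 without the 3 shallowest libraries). They were among 4 that rose and 2 that fell of 22 tested processing genes, 1 and 1 of them in all 6 fits that left out a library. The crosslinking enzyme LOX had a log2 fold change of 0.27 and did not pass (adjusted p = 0.238). Of 21 tested proteases and inhibitors, 2 rose and 3 fell, 1 and 1 of them in all 6 such fits. TIMP1, an inhibitor of matrix metalloproteinases, fell from 2948, 3172 and 3415 to 2025, 2059 and 2236 CPM (1.51-fold, adjusted p = 0.000796), and CTSB, a lysosomal cysteine protease, rose from 698, 584 and 693 to 1032, 964 and 1101 (1.57-fold, adjusted p = 0.00377). The collagenase MMP13 had 0 counts and the hypertrophic collagen COL10A1 3 counts in the 6 libraries.

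The contractile programme was mixed: 4 of 18 tested genes rose and 2 fell, 2 and 1 of them in all 6 fits that left out a library. ACTA2, smooth muscle actin, had 692, 879 and 757 CPM without a mold and 1001, 914 and 733 in the unanchored middle, with overlapping groups (log2 fold change 0.18, SE 0.139, adjusted p = 0.419). TAGLN (transgelin), which binds actin, had a log2 fold change of 0.06 (adjusted p = 0.814). CALD1 (caldesmon), which regulates actin and myosin, rose from 742, 773 and 686 to 1176, 1192 and 1029.7 CPM (1.54-fold, adjusted p = 0.000515). CNN1 (calponin 1) fell from 41.0, 34.5 and 38.2 to 24.1, 19.9 and 17.4 CPM (1.82-fold, adjusted p = 0.00589, and 0.0653 without the 3 shallowest libraries). CCN2, a widely used readout of YAP and TGF-β activity, had a log2 fold change of -0.05 (adjusted p = 0.829). The integrin list gave 1 rise and 1 fall among 14 tested (14.3%), focal adhesion adaptors 0 and 5 among 22 (22.7%), and YAP/TAZ targets and Hippo genes 1 and 2 among 19 (15.8%), so the first and last lay near the 14.8% of all tested genes. Of the 8 calls in the last pair of lists and the integrin that fell, 0 held in all 6 fits that left out a library. The rise in the integrin list was ITGBL1, an integrin beta-like secreted protein and not an integrin subunit. ITGBL1 went from 9.62, 8.23 and 7.94 to 20.4, 22.1 and 14.8 CPM (2.25-fold, adjusted p = 0.00149) and held in all 6 such fits.

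Several secreted growth factors were higher in unanchored middle. Of 24 tested FGF, PDGF and angiogenic factors and receptors, 8 rose and 2 fell, 5 and 1 of them in all 6 fits that left out a library. FGF7, a mesenchymal factor that acts on epithelial cells, had 7.09, 9.14 and 6.95 CPM without a mold and 27.8, 28.6 and 28.6 in the unanchored middle, 3.51-fold higher (log2 fold change 1.81, SE 0.2, adjusted p = 3.11e-06). Its relative FGF10 went from 16.2, 20.1 and 16.9 to 34.2, 36.8 and 32.4 CPM (1.89-fold, adjusted p = 0.00028). ANGPT1, a ligand of the endothelial receptor TIE2, went from 3.04, 3.43 and 4.47 to 12.8, 10.4 and 12.2 CPM (3.27-fold, adjusted p = 0.00021). PTN (pleiotrophin), a heparin-binding factor of cartilage and bone, went from 54.2, 37 and 58.6 to 138, 142 and 151 CPM (2.97-fold, adjusted p = 2.6e-07), the smallest adjusted p among the genes named here.

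VEGFA, the main angiogenic factor, had 25.8, 17.8 and 21.8 against 11.8, 12.5 and 15.3 CPM (adjusted p = 0.0453), a call lost in 4 of 6 fits that left out a library (adjusted p = 0.173 without no mold 1, 0.12 without no mold 3, 0.141 without unanchored middle 1 and 0.114 without unanchored middle 2) and without the 3 shallowest libraries (0.383).

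Binding proteins of insulin-like growth factors, which hold these factors outside the cell, shifted among themselves. IGFBP3 had 695, 419 and 676 CPM without a mold and 1275, 1432 and 1278 in the unanchored middle (2.24-fold higher, adjusted p = 1.31e-05). IGFBP2 went from 127, 58.5 and 103 to 231, 222 and 169 CPM (2.23-fold, adjusted p = 0.000788). IGFBP5 went down from 23.8, 19.7 and 18.9 to 11.2, 9.31 and 3.14 CPM (2.55-fold, adjusted p = 0.00826, and 0.0764 without the 3 shallowest libraries). For IGFBP2 and IGFBP3, no mold 2 was the lowest library of all 6, and for IGFBP5 unanchored middle 3 was.

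Genes of the TGF-β pathway passed about as often as all tested genes (14.3% beside 14.8%). TGFBR3 (betaglycan), the co-receptor that presents TGF-β ligands, rose from 38, 37 and 34.7 to 57.5, 68.9 and 58.4 CPM (1.68-fold, adjusted p = 0.000134), one of 3 rises and 0 falls among 21 tested TGF-β pathway genes. The ligands TGFB1 and TGFB3 had log2 fold changes of -0.19 and 0.61, short of the threshold (adjusted p = 0.475 and 0.0617). Of 19 tested BMP pathway genes, 5 rose and 1 fell, 1 and 1 of them in all 6 fits that left out a library. CHRDL1 (chordin-like 1), a secreted BMP antagonist, rose from 4.56, 5.94 and 5.46 to 16.7, 14.8 and 13.6 CPM (2.75-fold, adjusted p = 5.45e-05), and ID1, a direct target of BMP signals, fell from 204, 218 and 185 to 139, 154 and 109 (1.51-fold, adjusted p = 0.00757). Of 11 tested WNT pathway genes, 0 passed by edgeR, with 3 of them at an unadjusted p under 0.05, and 0 by limma-voom. DESeq2 gave an adjusted p for 8 of them and called 0. Fitting only the groups compared called 1 fall among 8 tested.

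S100 proteins, small calcium-binding proteins, fell in 7 of 11 tested members, with 0 rises and a median log2 fold change of -0.70. S100A1, which is found in chondrocytes and muscle, had 71.4, 75.0 and 41.7 CPM without a mold and 9.21, 11.5 and 6.28 in the unanchored middle, 7.03-fold lower (log2 fold change -2.81, SE 0.277, adjusted p = 7.38e-07). S100A2 went from 121, 126 and 150.3 to 40.8, 49.5 and 61.4 CPM (2.62-fold, adjusted p = 0.000134) and S100A13 from 90.1, 75.2 and 109.7 to 36.4, 44.2 and 53.5 (2.03-fold, adjusted p = 0.000107). S100A16 also fell, by 0.74 on the log2 scale (adjusted p = 0.000726), so that 4 of the 7 falls held in all 6 fits that left out a library. S100B, a marker of chondrocytes and Schwann cells named after its values were seen, had 435, 445 and 431 against 351, 380.1 and 329 CPM and did not pass (adjusted p = 0.0513).

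Metallothioneins bind zinc and copper and are induced by metals and glucocorticoids. MT2A had 929.6, 1008 and 1129 CPM without a mold and 414, 369 and 362 in the unanchored middle (2.68-fold lower, log2 fold change -1.42, SE 0.148, adjusted p = 1.33e-06), and MT1A went from 188, 221 and 216 to 80.5, 71.3 and 64.9 CPM (2.89-fold, adjusted p = 3.33e-07). Of their counts, 85.3% and 86.3% sat in values that are not whole, so their split among near-identical copies is uncertain. The other 3 tested metallothionein genes of the list did not pass. The chondrogenic medium of both groups held dexamethasone, and of 16 tested glucocorticoid response genes 2 rose and 4 fell. HSD11B1, which regenerates active glucocorticoid inside cells, fell from 68.9, 63.1 and 77.4 to 40.4, 39.8 and 46.4 CPM (1.64-fold, adjusted p = 0.000356), and 79.2% of its counts were in non-whole values.

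Genes induced by low oxygen and genes of glucose breakdown were lower in the molded middle. Of 18 tested hypoxia genes, 9 fell and 0 rose (median log2 fold change -0.38), and of 21 tested glycolysis and lactate genes, 11 fell and 0 rose (median -0.54). In fits that left out 1 library the falls numbered 3 to 7 and 5 to 10, with 5 and 5 without unanchored middle 3 and 3 and 5 without no mold 3. Unanchored middle 3 was the lowest of its group in 12 of the 18 and 17 of the 21 genes, against 36.5% of all tested genes. Its part in the result was not tested. ADM (adrenomedullin), a vasodilator peptide induced by hypoxia, had 74.9, 57.1 and 56.1 CPM without a mold and 24.2, 27.8 and 15.2 in the unanchored middle (2.75-fold lower, adjusted p = 0.000155). NDRG1, a stress gene also induced by hypoxia, went from 316, 253 and 294 to 169.9, 161 and 164 CPM (1.74-fold, adjusted p = 5.71e-05), and ERO1A, an oxidase of the endoplasmic reticulum, from 55.2, 45.5 and 49.1 to 31.6, 28.1 and 25.1 (1.74-fold, adjusted p = 0.00694).

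The 5 glycolysis and lactate genes that fell in every fit that left out 1 library follow. SLC16A3, the lactate exporter MCT4, went from 77.0, 55.1 and 64.0 to 21.4, 27.1 and 17.4 CPM (2.91-fold, log2 fold change -1.54, SE 0.373, adjusted p = 0.00745). LDHA, the lactate dehydrogenase subunit, went from 1060.3, 942 and 1160.1 to 562, 639 and 549 (1.81-fold, adjusted p = 0.00227), and 100% of its counts were in non-whole values. PGK1 and PGAM1, enzymes of the later steps, and HK1, a hexokinase, fell by 0.74, 0.77 and 0.56 on the log2 scale (adjusted p = 0.00265, 0.000843 and 0.00439). CA9, a carbonic anhydrase induced by hypoxia, went from 27.3, 23.1 and 26.8 to 10.6, 13.3 and 3.66 CPM (adjusted p = 0.027), but passed in only 1 of 6 fits that left out a library (adjusted p = 0.0745, 0.0591 and 0.0845 without no mold 1, 2 and 3, and 0.0527 and 0.0957 without unanchored middle 1 and 3) and did not pass with DESeq2 or without the 3 shallowest libraries. ANKRD37, another hypoxia gene, went from 20.3, 13.3 and 24.3 to 6.66, 7.89 and 4.19 CPM (adjusted p = 0.00866) and was lost without no mold 3 (adjusted p = 0.0637) and without the 3 shallowest libraries (0.0864).

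Several inflammatory cytokines and chemokines were lower in unanchored middle. Of 23 tested cytokines, chemokines and adhesion genes, 7 fell and 4 rose, 5 and 2 of them in all 6 fits that left out a library. IL6 had 10.6, 10.3 and 13.4 CPM without a mold and 2.69, 3.16 and 4.88 in the unanchored middle (3.17-fold lower, log2 fold change -1.67, SE 0.337, adjusted p = 0.00198). CXCL8 (interleukin 8), which attracts neutrophils, went from 6.08, 4.34 and 4.96 to 0.709, 0.631 and 1.92 CPM (4.63-fold, adjusted p = 0.0019), and CCL2, which attracts monocytes, from 27.8, 43.4 and 40.7 to 16.3, 18.3 and 24.4 (1.95-fold, adjusted p = 0.00161). PTGES, the prostaglandin E synthase, was named after its values were seen and fell by 2.1 on the log2 scale (adjusted p = 0.0074). TNF went from 5.57, 2.29 and 3.97 to 0.567, 0.947 and 1.05 CPM (adjusted p = 0.00393, and 0.225 without the 3 shallowest libraries). The rises included CXCL12, a stromal chemokine, from 53.7, 61.9 and 60 to 83.8, 96.2 and 79.4 CPM (adjusted p = 0.00399, and 0.0683 without the 3 shallowest libraries). Leukocyte markers summed to 9.72 to 11.0 CPM of the library total in unanchored middle and 10.5 to 18.7 in no mold, with 12 of 16 below the limit for testing, and their part in these differences was not tested.

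Complement and acute phase genes gave 4 rises and 0 falls among 14 tested (28.6%, beside 7.56% of all tested genes higher). C1S, a protease that starts the classical complement pathway, went from 56.7, 40.2 and 60 to 92.7, 118 and 119.6 CPM (2.16-fold, adjusted p = 2.47e-05). HP (haptoglobin), which binds free haemoglobin, went from 7.09, 6.63 and 9.43 to 12.9, 19.2 and 18.7 CPM (2.25-fold, adjusted p = 0.000724). For both genes each library of unanchored middle lay above each of no mold. C1R, the partner protease of C1S, and SERPING1, the inhibitor of both, rose by 0.88 and 1.05 on the log2 scale (adjusted p = 0.0102 and 0.0117), but C1R was lost without no mold 2 or unanchored middle 2 (adjusted p = 0.126 and 0.0516) and SERPING1 without no mold 2 (0.228). When unanchored middle was set against unanchored post, 4 of the 14 list genes passed, beside 0.448% of all tested genes.

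Antioxidant and iron-storage genes, many of them targets of the transcription factor NRF2, fell in 11 of 23 tested members and rose in 2 (median log2 fold change -0.39). FTH1, the heavy chain of ferritin, had 3446, 3394 and 4033 CPM without a mold and 1628, 1604 and 1755 in the unanchored middle (2.18-fold lower, log2 fold change -1.12, SE 0.116, adjusted p = 1.29e-06), and 100% of its counts were in non-whole values. HMOX1 (haem oxygenase 1) went from 243, 188 and 193 to 118, 103 and 92.8 CPM (1.97-fold, adjusted p = 7.1e-05), and the quinone reductase NQO1 from 94.2, 85.3 and 95.3 to 48.3, 51.0 and 56.9 (1.75-fold, adjusted p = 0.000275). GPX1, a glutathione peroxidase, fell by 0.67 on the log2 scale (adjusted p = 0.000291). AOX1 (aldehyde oxidase) ran against the list, from 1.01, 2.29 and 2.98 to 10.3, 10.7 and 11.2 CPM, and was the largest rise of the named genes with at least 10 CPM in a group (4.95-fold, log2 fold change 2.31, SE 0.283, adjusted p = 1.13e-05). MGST1, a membrane-bound glutathione transferase outside the list, rose from 18.2, 12.1 and 17.4 to 40.5, 38.2 and 44.0 CPM (2.7-fold, adjusted p = 1.31e-05).

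Immediate early genes, switched on within minutes of serum or mechanical stimulation, fell in 7 of 22 tested members and rose in 0 (median log2 fold change -0.30). Of these falls, 3 held in all 6 fits that left out a library. FOSL1 and JUNB, subunits of AP-1, went from 31.4, 28.3 and 37.2 to 18, 17 and 18.1 CPM (1.79-fold, adjusted p = 0.000541) and from 279, 287 and 288 to 206, 219 and 195 CPM (1.38-fold, adjusted p = 0.00147). DUSP5, a phosphatase that turns off ERK, fell by 0.83 on the log2 scale (adjusted p = 0.00203). FOS and EGR1, named after their values were seen, had log2 fold changes of -0.40 and -0.45, short of the threshold (adjusted p = 0.0521 and 0.0843).

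Many ribosomal protein genes were lower in unanchored middle. Of 62 tested cytosolic ribosomal protein genes, 26 fell and 0 rose (41.9%, beside 7.2% of all tested genes lower). The median log2 fold change was -0.36, and 6 of the falls held in all 6 fits that left out a library. No mold 3 was the highest of its group in 48 of the 62, against 4040 of all 11834 tested genes. The falls numbered 6 without no mold 3 and 7 without unanchored middle 1. The part of these libraries in the result was not tested. RPL7A had 4212, 3787 and 4725 CPM without a mold and 1905, 2203 and 2626 in the unanchored middle (1.89-fold lower, adjusted p = 0.000291), and 100% of its counts were in non-whole values, and RPL28, with 0%, went from 1265, 1095 and 1261 to 693, 771 and 779 CPM (1.61-fold, adjusted p = 0.0008). Proteasome subunits gave 2 rises and 11 falls among 35 tested, 1 and 3 of them in all 6 fits that left out a library. Chaperones of the endoplasmic reticulum rose in 7 and fell in 3 of 24 tested genes, but 1 rise and 0 falls held in all 6 such fits. The counts were 2 and 2 without no mold 1, 1 and 0 without no mold 3, 4 and 0 without unanchored middle 1, and 4 and 1 without unanchored middle 2. HSP90B1, the chaperone GRP94, rose from 495, 591 and 378 to 786, 831 and 663 CPM (1.55-fold, adjusted p = 0.00372, and 0.196 without the 3 shallowest libraries).

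Of 13 mitochondrially encoded genes of the respiratory chain, 3 rose and 0 fell (23.1% called, median log2 fold change 0.36), and of 46 tested nuclear genes, 1 rose and 8 fell (19.6%, median -0.12). The difference between the lists was not tested. No mold 3 was the highest of its group in 37 of the 46 nuclear genes, and no mold 2 in all 13 mitochondrial ones. Leaving out the 3 shallowest libraries gave a median of 0.06 for the first list and -0.14 for the second. COX1 (ENSBTAG00000043561), the catalytic subunit of cytochrome oxidase, had 1928, 2598 and 1979.8 CPM without a mold and 4032, 3911 and 4595 in the unanchored middle (1.93-fold higher, log2 fold change 0.95, SE 0.136, adjusted p = 7.1e-05). The other 2, ND1 and COX3, did not hold: ND1 was lost without no mold 3 (adjusted p = 0.0767), and COX3 in 5 of 6 such fits (adjusted p = 0.179, 0.119, 0.0996, 0.0691 and 0.0898, in the order no mold 1, no mold 3 and unanchored middle 1 to 3), and neither passed without the 3 shallowest libraries. On the nuclear side ATP5F1D, a subunit of ATP synthase, fell from 265, 216 and 252 to 144, 149 and 159 CPM (1.61-fold, adjusted p = 7.56e-05), and SDHC, of complex II, by 0.60 on the log2 scale (adjusted p = 0.000297). The mitochondrial list is also what sets the mitochondrial share of each library given above.

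Cell division genes gave 3 rises and 1 fall among 35 tested (11.4%, below the 14.8% of all tested genes). The proliferation marker MKI67 had 11.1, 9.60 and 4.47 CPM without a mold and 7.94, 4.89 and 5.58 in the unanchored middle (log2 fold change -0.48, adjusted p = 0.392). CDKN1C (p57), an inhibitor of the cell cycle, rose from 92.7, 77.7 and 75.4 to 168, 192 and 118 CPM (1.96-fold, adjusted p = 0.00092), and CDKN1B (p27), another inhibitor, from 69.9, 54.4 and 52.1 to 75.7, 92.3 and 85.1 (1.45-fold, adjusted p = 0.00304). The other rise, of the replication helicase subunit MCM7, was 0.36 on the log2 scale (adjusted p = 0.037) and passed without unanchored middle 3 but in none of the other 5 fits that left out a library, in which the adjusted p ran from 0.0708 to 0.139, nor with DESeq2, upper-quartile scaling or without the 3 shallowest libraries. CCND1 (cyclin D1) fell by 0.37 (adjusted p = 0.0175), lost without no mold 1 (0.0807), unanchored middle 2 (0.103) or the 3 shallowest libraries (0.19). Among the largest differences outside the lists, the uridine phosphorylase UPP1 fell from 32.4, 16 and 21.8 to 3.97, 4.42 and 5.06 CPM (4.96-fold, adjusted p = 3.8e-05). The angiopoietin-like protein ANGPTL5 rose from 32.4, 37 and 27.8 to 86.7, 99.9 and 88.4 CPM (2.77-fold, adjusted p = 3.4e-07).

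**Figure D4:**
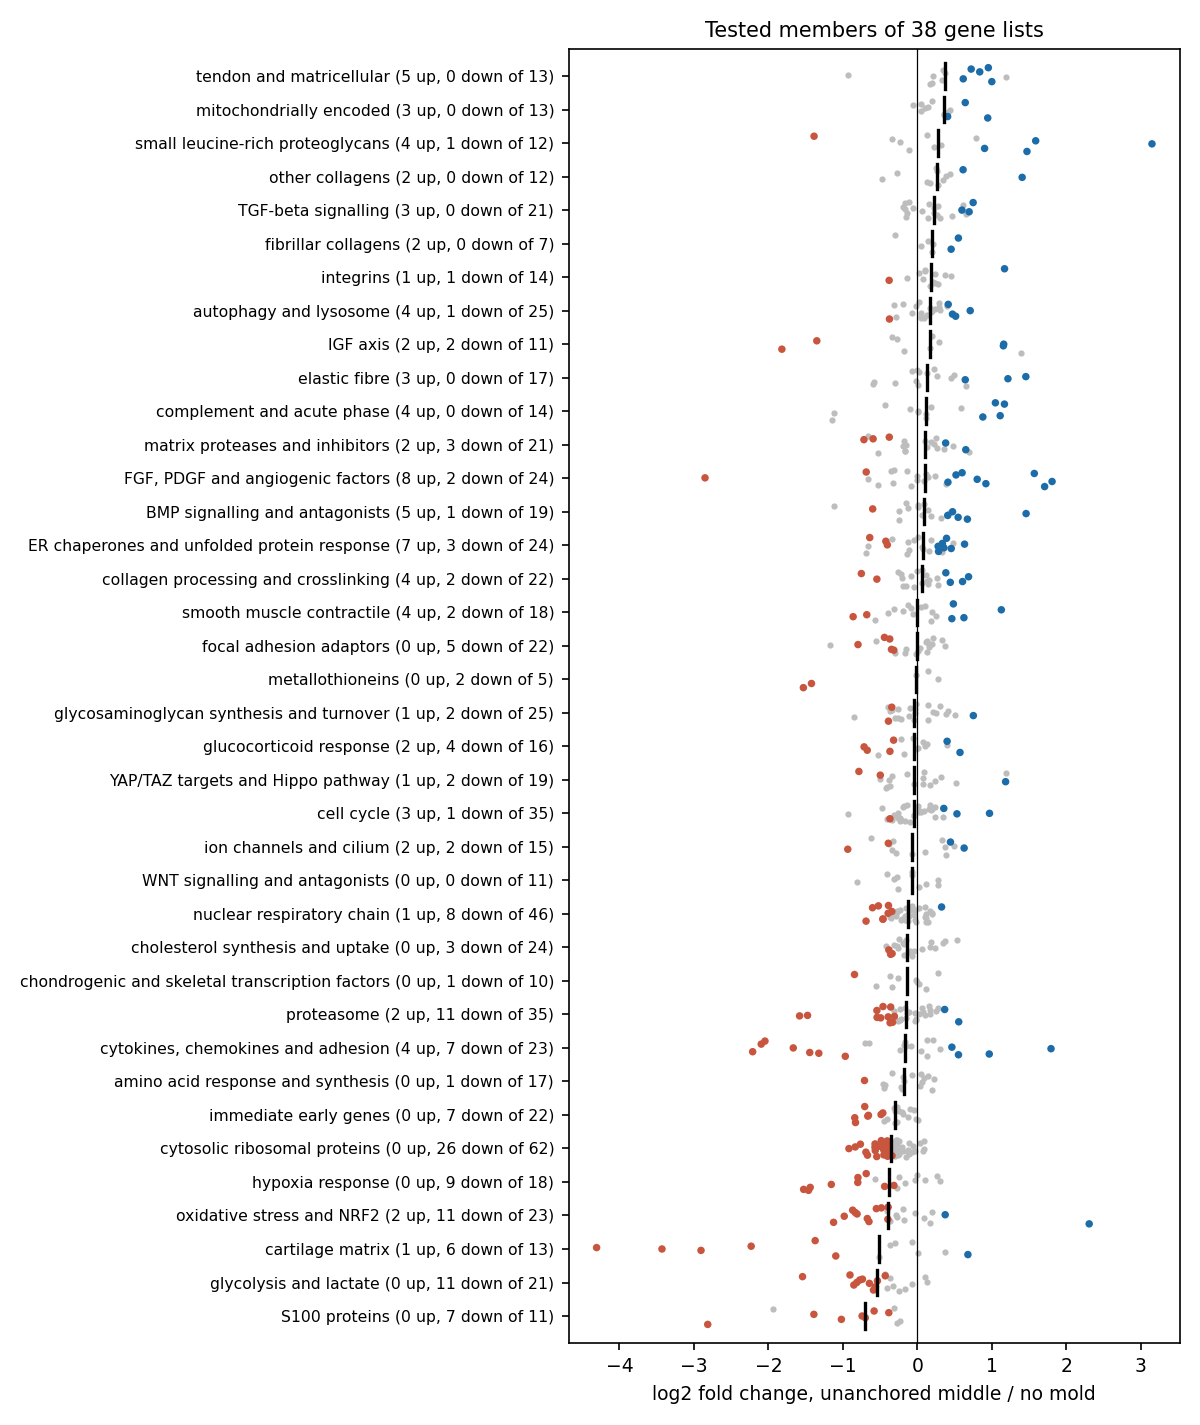
Each line is 1 of 38 gene lists with its tested members as points along the log2 fold change of unanchored middle over no mold, coloured where they passed (blue higher, red lower) and grey where they did not, and a black bar at the list's median. S100 proteins, glycolysis and cartilage matrix lie lowest by median, at -0.70, -0.54 and -0.52.

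Some transcripts not typical of the meniscus also moved. Of 11 liver and serum genes listed, 7 could be tested, 3 fell and 1 rose, and the list summed to 75.1 to 97.8 CPM of the library total in unanchored middle and 131 to 259 in no mold. TTR was the member that rose (log2 fold change 1.19), a call lost without no mold 2 or no mold 3. It had 7.28, 3.81 and 2.35 CPM of the library total without a mold and 11.6, 10.9 and 8.65 in the unanchored middle. AFP (alpha-fetoprotein) had 121, 43.2 and 122 CPM without a mold and 22.7, 33.9 and 39.9 in the unanchored middle (adjusted p = 0.00586), not past the threshold without no mold 3 (adjusted p = 0.0538) and without the 3 shallowest libraries (0.502). No mold 1 and 3, the shallowest of the 6 libraries, held the high AFP values, and no mold 2 lay close to the highest library of unanchored middle. APOA1, of the high-density lipoprotein, went from 68.9, 63.1 and 56.6 to 24.4, 30.6 and 19.2 CPM with no overlap (2.53-fold, adjusted p = 3.64e-05), and 100% of its counts were in non-whole values. The part of these transcripts in the other results was not tested. Mural cell markers gave 0 calls among 6 tested by edgeR (1 at an unadjusted p under 0.05) and 0 by limma-voom. DESeq2 gave an adjusted p for 4 of them and called 0.

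The unanchored middle was then set against other molded tissue, which had the same media. It differed from the mean of the other 3 molded groups in 15 genes (0.127%), of which 14 (0.118%) were higher and 1 (0.00845%) lower (edgeR). It differed from unanchored post in 53 genes (0.448%), 45 (0.38%) higher and 8 (0.0676%) lower, and from anchored middle in 0 (0.0%), with 366 genes at an unadjusted p under 0.05 and 0 called by DESeq2 or limma-voom. These counts hung on single libraries. The 15 became 0 without unanchored middle 2 (731 genes at an unadjusted p under 0.05), 7 without unanchored middle 3, 32 without anchored post 2 and 58 without anchored middle 2. The 53 became 3, 14 and 129 without unanchored middle 2, 1 and 3, and 7, 16 and 25 without unanchored post 3, 1 and 2. Of the 13 tested cartilage matrix genes, 2 passed against the other molded groups and 2 against unanchored post, beside 0.127% and 0.448% of all tested genes. None of the cartilage collagens above passed in either: the log2 fold change of COL2A1 was -0.25 against the other molded groups (adjusted p = 0.811) and 0.45 against unanchored post (0.649).

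Of the 15 genes, IGFBP3 and HP are given here in every molded group. IGFBP3 averaged 1328 ± 89.9 CPM in unanchored middle, 1204 ± 69.7 in anchored middle, 695 ± 94.9 in unanchored post and 548 ± 38.7 in anchored post (SD, n = 3), against 597 ± 154 without a mold, with a log2 fold change of 0.79 against the other molded groups (adjusted p = 0.003). Both middle groups lay above both post groups, and the posts lay near no mold. HP, the haptoglobin gene, had the same order, with 16.9 ± 3.51 and 16.4 ± 2.07 CPM in the middle groups, 7.66 ± 0.792 and 5.92 ± 0.723 at the unanchored and anchored posts (log2 fold change 0.90, adjusted p = 0.00344). CCN5, a matricellular protein of the CCN family, averaged 15.7 ± 1.62 CPM against 7.73 ± 3.32 without a mold, a call lost without no mold 2 (adjusted p = 0.109), and was higher than in the other molded groups by 1.01 on the log2 scale (adjusted p = 0.00839). MGST1, the glutathione transferase, was higher than in the other molded groups by 0.60 (adjusted p = 0.0209). GAS1, a membrane protein that binds hedgehog ligands, was named after its values were seen and was higher by 0.56 (adjusted p = 0.00797). GAS1 had 96.5, 73.3 and 106 CPM in anchored middle and 102, 109 and 131 in unanchored middle, so these 2 groups overlapped. Against anchored middle alone 0 genes passed, so none of these levels is particular to unanchored middle.

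Of the 53 genes that differed from unanchored post, 32 also passed against no mold, beside 14.8% of all tested genes. Both comparisons use the same unanchored middle libraries, so this overlap is not independent evidence. PRG4, SCARA5 and CALCRL are examples of the 53 that did not pass against no mold. PRG4 averaged 276 ± 41.1 CPM without a mold, 261 ± 31.0 in unanchored middle and 279.6 ± 79.7 in anchored middle, but 129 ± 32.5 and 114 ± 22.9 at the unanchored and anchored posts (SD, n = 3; unanchored middle against unanchored post, log2 fold change 1.01, adjusted p = 0.0134). SCARA5, a receptor that takes up ferritin, stood at 10.4 ± 3.55 CPM without a mold and 12.7 ± 2.33 in the unanchored middle, against 4.75 ± 1.84 in unanchored post (log2 fold change 1.43, adjusted p = 0.013). CALCRL, the receptor for the peptides CGRP and adrenomedullin, also named after its values were seen, averaged 24.7 ± 6.19 and 26.3 ± 3.95 against 14.6 ± 1.92 CPM (log2 fold change 0.85, adjusted p = 0.0271). COMP had a like order, at 1795 ± 700.4, 1392 ± 576 and 581 ± 186 CPM in no mold, unanchored middle and unanchored post, and did not pass against unanchored post (log2 fold change 1.26, adjusted p = 0.0503). MT1A was the 1 gene lower than in the other molded groups, at 72.2 ± 7.85 CPM in unanchored middle, 90.5 ± 17 in anchored middle, 111 ± 16.5 and 154 ± 22.8 at the unanchored and anchored posts and 208 ± 17.5 without a mold (log2 fold change -0.67, adjusted p = 0.00797). The comparisons with no mold and with other molded tissue share the unanchored middle libraries.

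**Figure D5:**
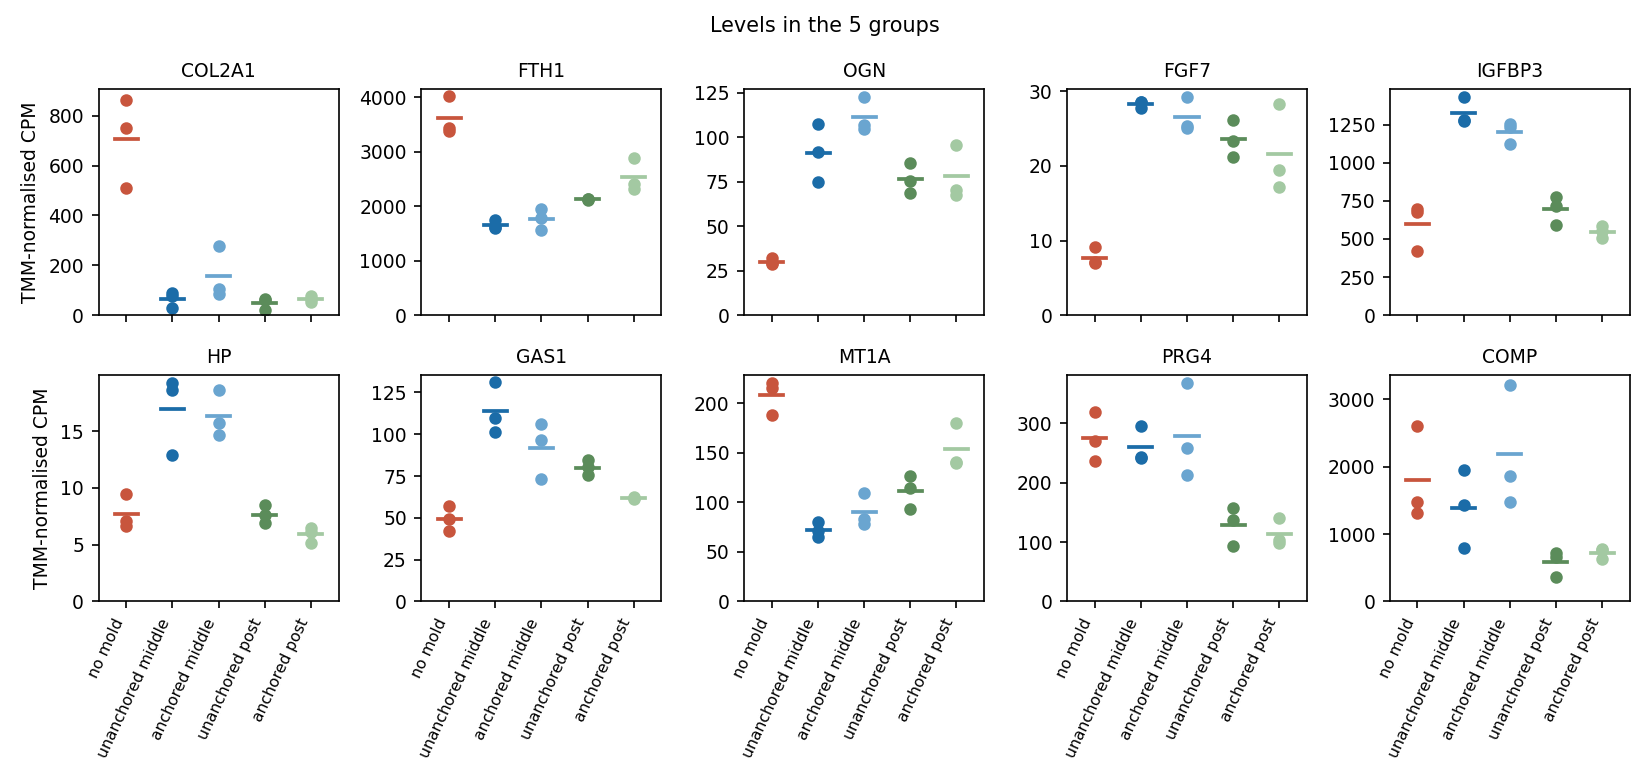
Points are libraries and lines group means of TMM-normalised CPM in the 5 groups, for 10 genes, each on a linear axis from 0. COL2A1, FTH1, OGN and FGF7 separate no mold from the molded groups, IGFBP3 and HP are high in both middle groups, and PRG4 is lower at both posts.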

How the data were processed

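Bulk RNA was sequenced from 15 libraries, of which 6 enter the main comparison. Per the labels' protocols, RNA was primed with oligo-dT carrying a molecular identifier and tagmented. The tools listed are MultiQC 1.33, featureCounts from Subread 2.1.1, SAMtools 1.21 and STAR 2.7, per the submitters' processing notes. Not given in the sources used here are the build, the annotation and any collapsing of reads that share an identifier. The authors deposited expected counts, since 13.5% to 16.3% of nonzero values are not whole (tolerance 1e-06), and CPM, which equalled the count divided by the library total. Every value column matched a sample (0 unmapped). Libraries held 2060781 to 7415701 counts, so intervals and tests are widest for low genes.

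Spike-in transcripts (92, with 18 to 70 counts per library) were left out and the deposited counts rounded. Genes were kept by filterByExpr of edgeR 4.0.16 (minimum count 10, minimum total 15), scaled by TMM, and tested in R 4.3.3 with 1 quasi-likelihood fit over all 15 libraries, 1 mean per group, two-sided contrasts and Benjamini-Hochberg adjustment over 11834 genes. The fit was tested on simulated counts. Symbols deposited as currency amounts (51) were respelled. Symbols carried by several identifiers were not used for lists.

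Alternatives were DESeq2 1.42.0, limma 3.58.1 (voom), 2 other scalings, 2 other filters, the compared groups alone, a replicate block, each library left out, and the 3 shallowest libraries left out. Named genes were the 15 largest rises and falls with at least 10 CPM in a group and no overlap, up to 5 genes per list by adjusted p and any gene of a list with 5 or fewer tested, a set panel, and the 5 largest rises and falls of the other comparisons; some that met this rule are not reported here. The members and lists were chosen with earlier results of these data known. Sequences and coordinates were not used here.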

Additional observations from a re-analysis of the deposited data

How the results depend on the processing

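Leaving out 1 library at a time gave 790 to 1491 genes for unanchored middle against no mold (1747 as reported), 0 to 58 against the other molded groups (15), 3 to 129 against unanchored post (53) and 0 in each such fit against anchored middle. Without the 3 shallowest libraries the first 3 counts were 421, 50 and 148. DESeq2 gave 39 against the other molded groups and 133 against unanchored post, fitting only the groups compared gave 192 against unanchored post, and no filter on low counts gave 186, 272 and, against anchored middle, 28. The cause of these shifts was not tested. The other scalings, tools and filters left the count against no mold between 1537 and 1916, and fitting only the groups compared gave 2077. No pairing by replicate number was seen (same-number correlations 0.02, -0.03 and 0.07, with library 3 alone correlating best with its own number). Such low values cannot exclude a shared source, since deviations from a mean of 3 libraries also hold counting noise. The fit with the replicate block gave 1759, 18, 63 and 0 genes in the 4 comparisons. Of the 207 named genes, 172 passed against no mold, 101 in all 6 fits that left out a library and 81 in each alternative in which they could be tested. The 2060781 to 4466562 counts of the no-mold libraries limit the genes under about 10 CPM most. An exact permutation test of 3 libraries against 3 cannot go below p = 0.1.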

Other observations

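Of 25 tested autophagy and lysosome genes, 4 rose and 1 fell in unanchored middle against no mold (median log2 fold change 0.17), which is 20% of the list beside 14.8% of all tested genes. GRN (progranulin), a lysosomal and secreted protein, went from 46.6, 51.0 and 36.7 to 77.8, 73.8 and 71.9 CPM (1.64-fold, edgeR adjusted p = 0.000889, and 0.0671 without the 3 shallowest libraries). CTSA and CTSS, lysosomal proteases, rose by 0.51 and 0.47 on the log2 scale (adjusted p = 0.00931 and 0.00782), and neither passed without the 3 shallowest libraries (0.089 and 0.102). Cholesterol genes gave 0 rises and 3 falls among 24 tested, glycosaminoglycan genes 1 and 2 among 25, and amino acid response genes 0 and 1 among 17. Adipocyte markers summed to 401 to 489.9 CPM of the library total in unanchored middle and 288 to 322 in no mold. FABP4 made up most of these sums, at 338 to 435 and 219 to 258 CPM. The other 3 tested markers had negative log2 fold changes, and the median over all 4 was -0.10.

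The 3 genes below were chosen after their values were seen. VCAM1, an adhesion receptor for leukocytes, had 1.52, 1.37 and 0 CPM without a mold and 9.92, 10.3 and 6.28 in the unanchored middle (log2 fold change 3.03, SE 0.546, edgeR adjusted p = 0.000724, and 0.0101 without the 3 shallowest libraries), with 39.1% of its counts in non-whole values. WFDC2, a secreted protease inhibitor of epithelia, had 3.54, 4.11 and 4.47 CPM without a mold and 1.13, 0.158 and 0.523 in the unanchored middle (log2 fold change -2.65, adjusted p = 0.000591). The unnamed gene ENSBTAG00000051412 had 234, 166 and 153 CPM without a mold and 7.79, 12.5 and 6.10 in the unanchored middle (log2 fold change -4.37, adjusted p = 0.00245), with 78.2% of its counts in non-whole values. It averaged 119 ± 193 CPM in anchored middle (SD, n = 3), a spread wider than the mean.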
